A study of Mus musculus with 29 samples.

Results

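The Egr and Nr4a transcription factors, with Ier2 and the upstream factor Srf, were followed as 9 genes chosen by name (Egr1, Egr2, Egr3, Egr4, Nr4a1, Nr4a2, Nr4a3, Ier2 and Srf) out of 54532 genes counted in 29 libraries of mouse spinal cord. Aortic cross clamping (ACC) stops blood flow to the lower cord and models the cord ischemia of aortic surgery. At 1 h after ACC, the thoracolumbar cord of 3 wild-type (WT, C57BL-6J) mice was set against the cervical cord of the same mice, a region the study treats as spared. At 4 h, thoracolumbar cord of ACC mice was set against Sham-operated littermates in 3 genotypes: WT, with 3 mice in each arm; mice lacking the microRNA miR-128 in every tissue (miR128KO), with 4 ACC libraries here and 4 Sham; and mice with a miR-155 knock-in aimed at motor neurons (miR155KI), with 5 and 4. Both mutants were on the C57BL6 background and mice were of either sex. The labels do not name the promoter behind the knock-in.

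Immediate early genes are transcribed within minutes of a stimulus, without new protein synthesis. Egr1 to Egr4 encode zinc finger factors that bind GC-rich sites, and Nab1 and Nab2 hold Egr1, Egr2 and Egr3 in check as corepressors. Nr4a1, Nr4a2 and Nr4a3 encode orphan nuclear receptors that act without a known natural ligand and are controlled mainly by how much of them is made. Srf binds the CArG box in promoters of many immediate early genes, together with Elk factors, and can act upstream of such genes. CREB acts through the cAMP response element. In the nervous system Egr1 and Nr4a1 report neuronal activity and injury, Egr2 also drives myelination in Schwann cells of the nerve roots, Egr3 and Egr4 follow synaptic activity, and Nr4a2 is best known for maintaining dopamine neurons.

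RefSeq promoter windows of 300 bases on GRCm38.p6, from 250 bases before to 50 after a start site, were matched by symbol for 6 of the 9 members: Egr2, Egr4, Nr4a1, Nr4a2, Nr4a3 and Srf. Egr1, Egr3 and Ier2 are named only. The 5 windows shown carry the Srf site or the core of the CREB site, and set Egr4 and Nr4a1, the members with the largest 4 h rise in each family, beside Nr4a2, which did not pass any test. Capitals mark the CArG box and TGACG on either strand. They lie at Egr4 chr6:85513540-85513839 (minus strand), Egr2 chr10:67537619-67537918 (plus), Nr4a1 chr15:101266596-101266895 (plus), Nr4a2 chr2:57123954-57124253 (minus) and Srf chr17:46556113-46556412 (minus), each written 5′ to 3′ along the gene's strand.
Egr4: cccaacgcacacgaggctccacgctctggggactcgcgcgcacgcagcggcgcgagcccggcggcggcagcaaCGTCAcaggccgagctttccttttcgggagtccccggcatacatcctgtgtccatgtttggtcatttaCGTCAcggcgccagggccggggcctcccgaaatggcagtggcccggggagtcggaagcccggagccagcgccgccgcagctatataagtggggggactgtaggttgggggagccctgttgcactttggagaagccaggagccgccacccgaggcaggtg
Egr2: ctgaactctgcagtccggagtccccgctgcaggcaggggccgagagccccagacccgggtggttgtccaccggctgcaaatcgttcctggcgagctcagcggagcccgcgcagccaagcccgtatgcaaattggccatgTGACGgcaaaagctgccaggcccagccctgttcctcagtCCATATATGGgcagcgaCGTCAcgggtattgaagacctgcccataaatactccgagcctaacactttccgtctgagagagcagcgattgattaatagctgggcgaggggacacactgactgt
Nr4a1: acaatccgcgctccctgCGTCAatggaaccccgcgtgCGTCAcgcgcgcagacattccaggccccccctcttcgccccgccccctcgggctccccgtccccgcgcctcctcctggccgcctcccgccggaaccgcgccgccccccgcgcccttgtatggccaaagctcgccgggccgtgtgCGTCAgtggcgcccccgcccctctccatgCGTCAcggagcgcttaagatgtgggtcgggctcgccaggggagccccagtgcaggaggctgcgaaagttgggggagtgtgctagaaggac
Nr4a2: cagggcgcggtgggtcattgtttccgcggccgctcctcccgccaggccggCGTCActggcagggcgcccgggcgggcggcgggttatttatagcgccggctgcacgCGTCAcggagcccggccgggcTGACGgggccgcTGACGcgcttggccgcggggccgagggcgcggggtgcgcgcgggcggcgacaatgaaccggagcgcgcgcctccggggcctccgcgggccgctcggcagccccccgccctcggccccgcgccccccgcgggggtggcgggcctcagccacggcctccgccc
Srf: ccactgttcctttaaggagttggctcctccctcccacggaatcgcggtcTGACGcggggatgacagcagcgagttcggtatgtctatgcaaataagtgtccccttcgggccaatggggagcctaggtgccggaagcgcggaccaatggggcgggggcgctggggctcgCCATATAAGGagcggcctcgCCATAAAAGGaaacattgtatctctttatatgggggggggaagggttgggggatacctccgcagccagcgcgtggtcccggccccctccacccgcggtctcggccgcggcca

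The CArG box was found at 2 places in the Srf window, at positions -82 and -62 from the start site, and once in the Egr2 window shown, at -72. It occurs in 1.63% of the 32851 windows in the table. TGACG was found at 4 places each in the Nr4a1, Nr4a2 and Nr4a3 windows, at 2 places each in the Egr4 and Egr2 windows shown, and at 1 place in that of Srf, against 20.8% of all windows with any match. The full site TGACGTCA, present in 1.79% of all windows, was in none of the members' 10 windows, nor were GCGTGGGCG (0.612%), the Nr4a site AAAGGTCA (1.51%), the AP-1 site TGANTCA (7.81%) or the heat shock pattern GAANNTTC (7.86%). The Egr site GCGGGGGCG (2.91%) was in the Nr4a1 and Srf windows, TATAAA (13.6%) in the Nr4a2 and Srf windows, the MEF2 site (1.86%) in the Nr4a2 window, TTCNNGAA (8.52%) in 1 of 5 Egr2 windows, and the Ets core GGAA (96%) in every window. Both strands were searched, TGACG lies within TGACGTCA, and the MEF2 and TATAAA matches of Nr4a2 overlap. A match is a run of letters and shows no binding, and a missing match says only that those letters are not in the window. Nr4a2, which did not pass the test at either time, held as many TGACG copies as Nr4a1. The part of TGACG copies in the members' levels was not tested.

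Library totals ran from 15.6 M to 33.1 M assigned reads (M stands for 1000000). Levels are CPM (a gene's count per 1000000 reads) on library sizes adjusted by trimmed mean of M values (TMM) over all 29 libraries, and levels of different genes are compared only per kilobase of deposited gene length. Markers of neurons summed to 5448 to 7319 CPM in the 4 h mice and those of oligodendrocytes to 29817 to 43773 CPM, as a spinal cord label requires, while those of lymphocytes summed to at most 5.89 CPM. The 29 libraries hold no library 2 of miR128KO ACC. The study dropped library 1 of that group for looking like Sham, so 11 ACC and 11 Sham mice entered the 4 h tests. That exclusion was made on the outcome. In library 1, 8 of 9 members lay within the range of the 11 Sham mice, and Egr1 lay below it. In whole tissue, fewer cells of a type and less RNA per cell cannot be told apart.

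At 4 h, 8 of 9 members rose in ACC mice and none fell (edgeR quasi-likelihood test, adjusted p under 0.05 over 17759 genes), where 9.37% of all genes tested rose. The median log2 fold change was 1.90 over the 9 members and -0.01 over all genes tested. Egr4 rose 16.9-fold and Egr1 14.0-fold, ranking 7th and 8th by fold change of 17759 genes. Egr2, Egr3, Nr4a1 and Ier2 rose between 3.30-fold and 4.76-fold, Nr4a3 rose 1.97-fold and Srf rose 1.36-fold. Nr4a2 did not pass. Beside this rise, markers of other cell types fell at 4 h, where 7.04% of all genes fell: 3 of 6 for microglia (P2ry12 by 0.78, Tmem119 by 0.79 and Csf1r by 0.18 on the log2 scale), 3 of 9 for neurons, 2 of 4 for oligodendrocyte precursors, 1 of 6 for astrocytes and 1 of 3 for ependyma, of which 1 more rose. The microglial markers summed to 213 to 291 CPM in ACC and 252 to 327 CPM in Sham mice, none of them at 0, and the part of these cells in the members' rise was not tested. For 6 of 9 members (Egr1, Egr3, Egr4, Nr4a1, Ier2 and Srf), every ACC mouse tested stood above every Sham mouse, which held for 1.09% of all genes tested. Library 1 of miR128KO ACC, dropped for looking like Sham, is not in this count, and in it none of these members lay above the Sham range. The ACC ranges of single members below leave it out as well.

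**Figure D1:**
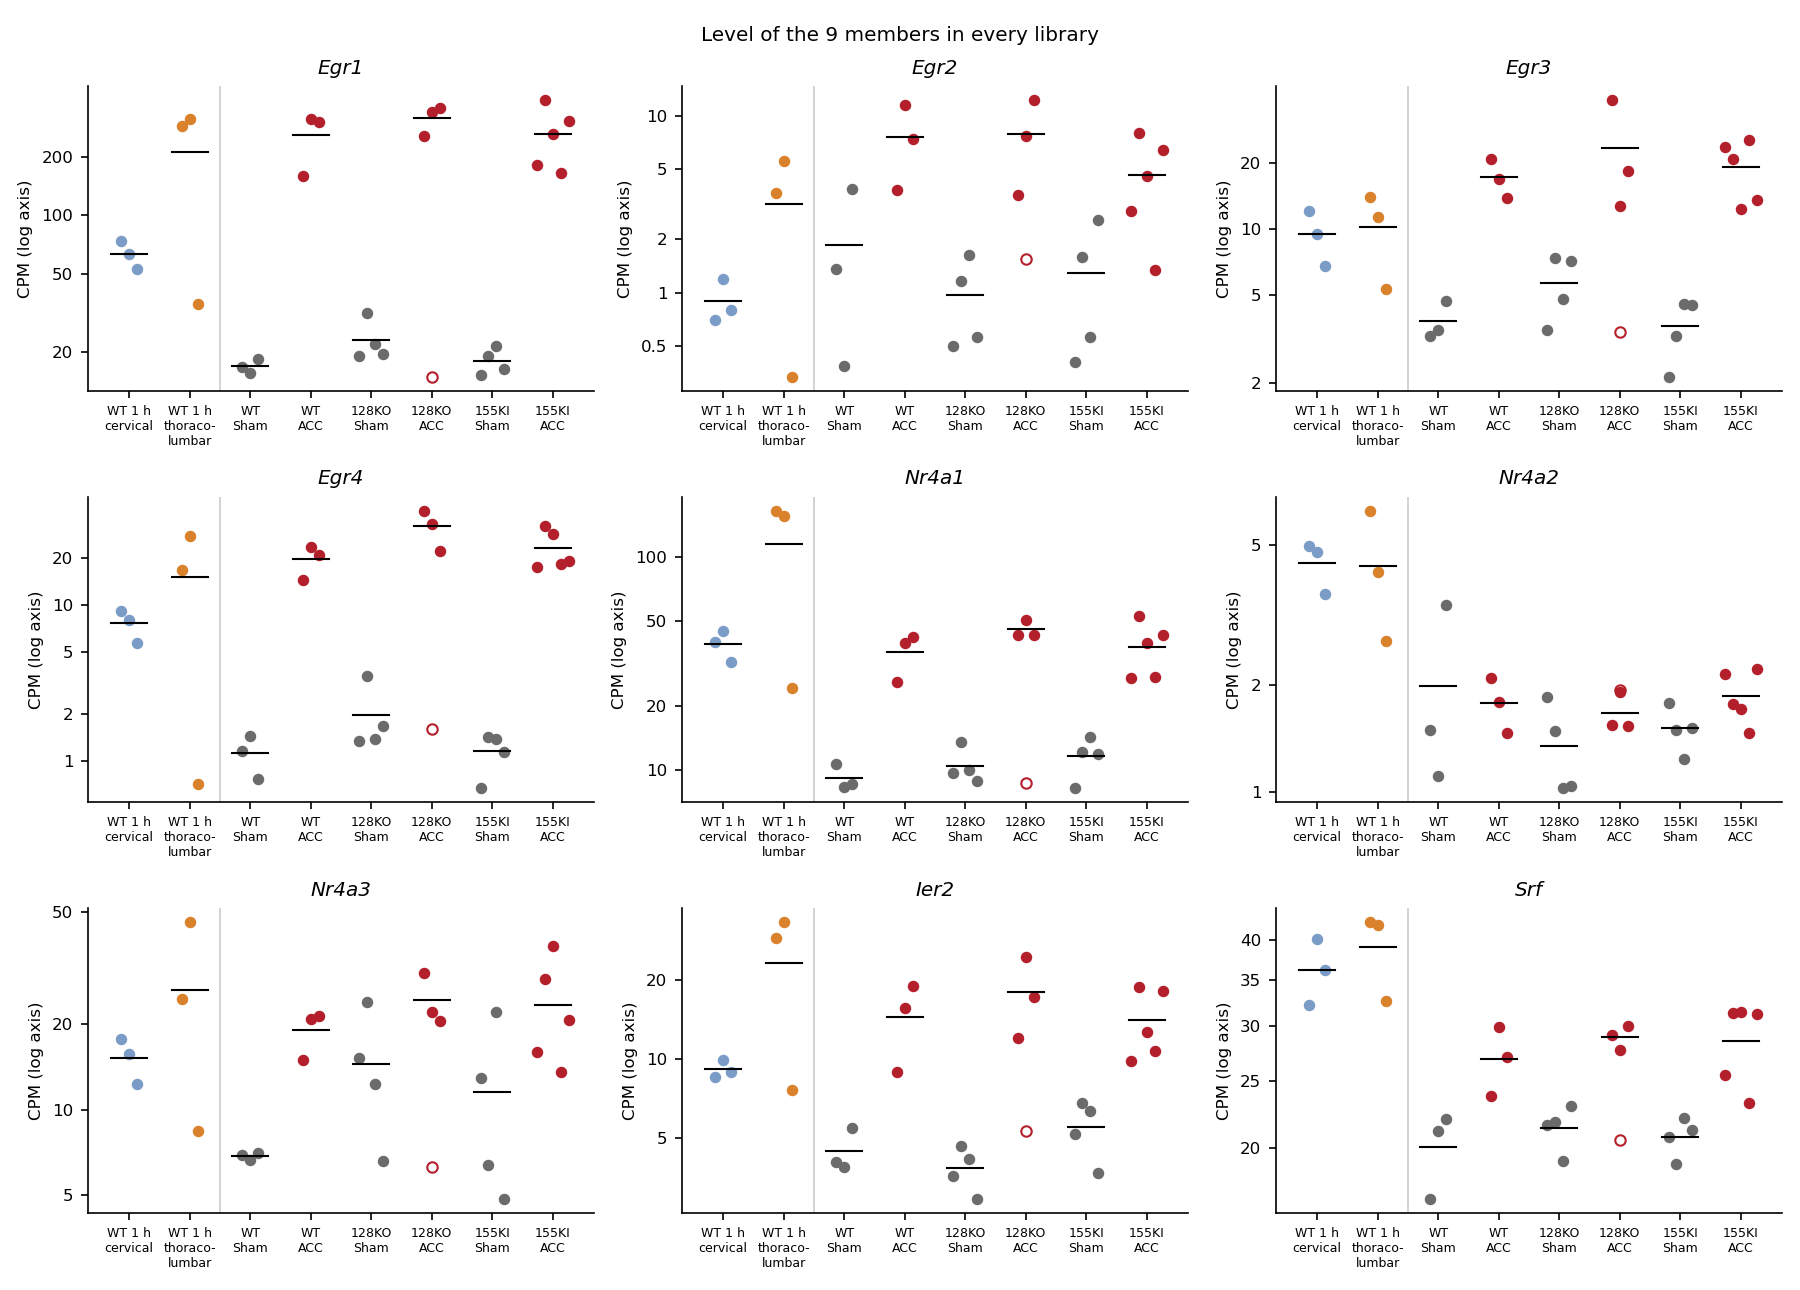
Level of each member in each library in CPM on a log axis, with 1 h libraries left of the grey line and 4 h libraries right of it; points are libraries, black bars are group means, and the open red circle is miR128KO ACC library 1, which is left out of the mean. The red ACC points of Egr1 run from 159 to 389.8 CPM and the grey Sham points from 15.2 to 31.8 CPM, while Nr4a2 shows no such separation.

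Egr1 (ENSMUSG00000038418, chromosome 18, 34859823 to 34864984, plus strand, GRCm38 as deposited) is the most widely used activity and injury marker of the family. In WT ACC mice 1 to 3 it stood at 159, 312 and 300.2 CPM, in miR128KO ACC mice 3 to 5 at 254, 339 and 353 CPM, and in miR155KI ACC mice 1 to 5 at 181, 389.8, 262, 164 and 303 CPM. In Sham mice it stood at 16.7, 15.6 and 18.5 CPM (WT), 19.2, 31.8, 22.1 and 19.7 CPM (miR128KO) and 15.2, 19.0, 21.5 and 16.4 CPM (miR155KI). Among the mice tested, the lowest ACC mouse thus lay well above the highest Sham mouse in every genotype. Library 1 of miR128KO ACC, which was left out, stood at 14.9 CPM. Of the ACC mice tested, 3 (WT 1, miR155KI 1 and miR155KI 4) formed a lower set. Egr1 rose by 3.81 on the log2 scale (SE 0.18, edgeR adjusted p = 2.79e-12).

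Egr4 (ENSMUSG00000071341, chromosome 6, 85511121 to 85513589, minus strand) encodes a family member with a more restricted, mainly neuronal expression. It stood at 14.4, 23.6 and 21.0 CPM in WT ACC mice, 40.1, 33.1 and 22.3 CPM in miR128KO ACC mice, and 17.5, 32.3, 28.6, 18.2 and 19.2 CPM in miR155KI ACC mice. Sham mice ranged from 0.674 to 3.52 CPM with a median of 1.38 CPM, so the groups did not overlap. Its log2 fold change was 4.08 (SE 0.234, edgeR adjusted p = 2.71e-11).

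Egr3 (ENSMUSG00000033730, chromosome 14, 70077203 to 70082614, plus strand), an activity-dependent factor of neurons and muscle spindles, rose from a Sham median of 4.51 CPM (range 2.12 to 7.40) to an ACC median of 18.4 CPM (range 12.3 to 38.8). All 11 ACC mice stood above all 11 Sham mice, with a log2 fold change of 2.15 (SE 0.222, edgeR adjusted p = 4.27e-07). The highest Egr3 level was that of miR128KO ACC mouse 3, at 38.8 CPM, followed by miR155KI ACC mice 4 and 1 at 25.4 and 23.6 CPM. The latter pair were among the 3 ACC mice with the lowest Egr1.

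Egr2 (ENSMUSG00000037868, chromosome 10, 67535475 to 67542188, plus strand), also known as Krox20, was the scarcest Egr member and the most scattered. It stood at 3.78, 11.5 and 7.44 CPM in WT ACC mice, 3.56, 7.69 and 12.3 CPM in miR128KO ACC mice, and 2.88, 8.02, 4.57, 1.35 and 6.40 CPM in miR155KI ACC mice. Sham mice stood at 1.35, 0.384 and 3.85 CPM (WT), 0.502, 1.16, 1.64 and 0.560 CPM (miR128KO) and 0.405, 1.59, 0.564 and 2.58 CPM (miR155KI). The groups overlapped, since miR155KI ACC mouse 4 lay below 5 Sham mice. Prx, a marker of Schwann cells, also varied widely among these mice, from 0.469 CPM in miR128KO ACC mouse 4 to 33.3 CPM in WT Sham mouse 3. The latter had the highest Sham level of Egr2, while miR155KI ACC mouse 2, with Egr2 at 8.02 CPM, had Prx at 0.946 CPM. The part of nerve root content in the Egr2 levels was not tested. Egr2 rose by 2.25 on the log2 scale (SE 0.417, edgeR adjusted p = 0.000622).

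Nr4a1 (ENSMUSG00000023034, chromosome 15, 101254269 to 101274795, plus strand), also called Nur77, is induced by calcium and growth factors in neurons and immune cells. ACC mice stood at 25.9, 39.6 and 42.2 CPM (WT), 43.2, 50.5 and 43.2 CPM (miR128KO) and 27.1, 52.7, 39.3, 27.2 and 42.8 CPM (miR155KI). Sham mice ranged from 8.26 to 14.2 CPM with a median of 9.99 CPM, below every ACC mouse. It rose by 1.90 on the log2 scale (SE 0.133, edgeR adjusted p = 2.99e-10).

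Nr4a3 (ENSMUSG00000028341, chromosome 4, 48045153 to 48086447, plus strand), or Nor1, separated less cleanly because of its Sham mice. WT Sham mice were tight at 6.96, 6.67 and 7.06 CPM, but miR128KO Sham mice stood at 15.3, 24.0, 12.3 and 6.59 CPM and miR155KI Sham mice at 13.0, 6.40, 22.1 and 4.86 CPM. ACC mice ranged from 13.6 to 38.0 CPM with a median of 20.9 CPM, so several mutant Sham mice lay inside the ACC range. Nr4a3 rose by 0.98 on the log2 scale (SE 0.275, edgeR adjusted p = 0.0175). With miR128KO ACC library 1 included it no longer passed (adjusted p = 0.0517; range over 28 alternatives 0.000295 to 0.0517).

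Nr4a2 (ENSMUSG00000026826, chromosome 2, 57106830 to 57124003, minus strand), or Nurr1, stayed low in both groups. ACC mice ranged from 1.47 to 2.22 CPM with a median of 1.77 CPM, and Sham mice from 1.02 to 3.37 CPM with a median of 1.49 CPM. The highest value of all 4 h mice was in WT Sham mouse 3, the mouse that also had the highest Egr2 of the Sham group. The log2 difference was 0.17 (SE 0.169, 95% interval -0.17 to 0.52, edgeR adjusted p = 0.548). The 95% interval of Nr4a3 (0.41 to 1.55) overlaps it, that of Nr4a1 (1.62 to 2.17) does not, and the difference between members was not tested.

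Ier2 (ENSMUSG00000053560, chromosome 8, 84661331 to 84662852, minus strand), a short early gene that encodes a nuclear protein, stood at 8.96, 15.6 and 19.0 CPM in WT ACC mice, 12.1, 24.6 and 17.2 CPM in miR128KO ACC mice and 9.87, 18.8, 12.7, 10.7 and 18.2 CPM in miR155KI ACC mice. Sham mice ranged from 2.93 to 6.80 CPM, with no overlap. Ier2 rose by 1.72 on the log2 scale (SE 0.172, edgeR adjusted p = 1.27e-07). Srf (ENSMUSG00000015605, chromosome 17, 46548329 to 46556175, minus strand) changed least of those that passed, from a Sham range of 16.9 to 23.0 CPM to an ACC range of 23.2 to 31.5 CPM. The ranges did not meet, and the log2 fold change was 0.44 (SE 0.0608, edgeR adjusted p = 4.37e-06). Srf overlaps 1 deposited gene on its own strand and 1 on the other, so its count may hold reads of both, and no other member overlaps a deposited gene.

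Per kilobase, the order of mean levels in ACC mice was Egr1 (61.2 ± 17.5 CPM per kb, SD, n = 11), Egr4 (11.4 ± 3.70), Nr4a1 (11.2 ± 2.60), Ier2 (10.02 ± 3.16), Srf (9.74 ± 1.04), Egr3 (4.48 ± 1.76), Nr4a3 (3.75 ± 1.22), Egr2 (1.86 ± 1.03) and Nr4a2 (0.441 ± 0.0679). Egr4, Nr4a1, Ier2 and Srf differed by less than 1 SD of Egr4, and Egr3 and Nr4a3 by less than 1 SD of either. In Sham mice the highest mean per kilobase was that of Srf (7.18 ± 0.615 CPM per kb, n = 11), followed by Egr1 (4.37 ± 1.03), Ier2 (3.03 ± 0.790) and Nr4a1 (3.01 ± 0.602), and Egr4 (0.675 ± 0.348) stood near the bottom with Egr2 and Nr4a2. Egr1 made up 68.4% ± 5.25 of the summed Egr level per kilobase in Sham mice and 76.9% ± 5.02 in ACC mice. Nr4a1 made up 58.4% ± 9.94 of the summed Nr4a level in Sham mice and 72.8% ± 4.29 in ACC mice, and Nr4a3 33.8% ± 10.9 and 24.2% ± 4.33.

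Within the genotypes, the clamp raised 5 of 9 members in WT mice (Egr1, Egr3, Egr4, Nr4a1 and Ier2; 1.44% of 19581 genes rose), 7 in miR128KO mice (these with Egr2 and Srf; 2.07%) and 6 in miR155KI mice (the WT members with Srf; 3.29%). None fell. Egr1 rose by 3.93 (SE 0.349), 3.76 (SE 0.305) and 3.86 (SE 0.293) on the log2 scale in WT, miR128KO and miR155KI mice, with adjusted p of 7.57e-06, 1.58e-06 and 5.06e-07 from edgeR. Egr4 rose by 4.15, 3.97 and 4.32. The estimates for Egr2 were more apart, at 2.00 (SE 0.801), 3.05 (SE 0.769) and 1.86 (SE 0.682), with wide and overlapping intervals. The Egr2 call in miR128KO mice was lost in 14 of 27 alternatives (edgeR adjusted p = 0.0433, range over alternatives 0.00432 to 0.461) and the Srf call in 8 of 27 (adjusted p = 0.0318, range 0.0122 to 0.219). With miR128KO ACC library 1 included, 2 members passed in WT mice and 4 in miR128KO mice. Without WT Sham library 1, or without WT Sham library 2, 3 members passed in WT mice.

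A call in 1 genotype and not in another is no difference by itself, and the test of the difference called none of the 9 members, with 0 genes called in all (0%). At an unadjusted p under 0.05, the joint test over 3 genotypes also gave 0 members, and DESeq2 called no member. Of the pairs of genotypes, the smallest p of any member was that of Ier2 in miR155KI against miR128KO mice (log2 difference -0.86, 95% interval -1.68 to -0.04, unadjusted p = 0.0403, edgeR adjusted p = 0.925). The joint test called no member among Sham genotypes (17 genes called, 0.0868%) or among ACC genotypes (21 genes, 0.107%), and neither joint test had a member at an unadjusted p under 0.05. The widest Sham difference was that of Nr4a3, higher in miR128KO than in WT mice by 1.08 on the log2 scale (95% interval 0.00 to 2.16, edgeR adjusted p = 0.783).

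**Figure D2:**
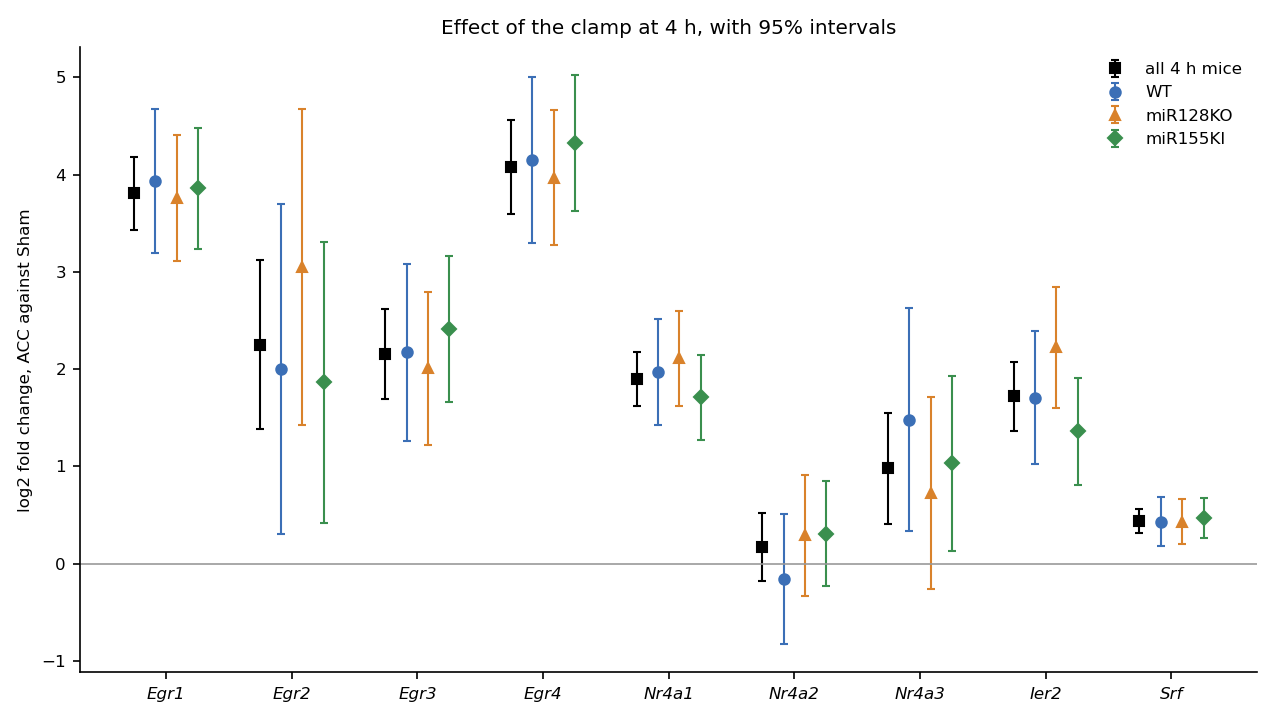
log2 fold change of ACC against Sham at 4 h for each member, with 95% intervals from edgeR; black squares are all 22 mice and coloured symbols the 3 genotypes. Egr1 and Egr4 lie near 4 in each genotype, and the Nr4a2 intervals include 0.

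The ACC mice differed among themselves, and 3 of the 11 (WT 1, miR155KI 4 and miR155KI 1) stood apart at low Egr1, at 159, 164 and 181 CPM against 254 CPM or more in the other 8. The same mice were the 3 lowest of the 11 for Nr4a1 (25.9, 27.2 and 27.1 CPM against 39.3 CPM or more), Ier2 (8.96, 10.7 and 9.87 against 12.1 or more), Egr4 (14.4, 18.2 and 17.5 against 19.2 or more), Nr4a3 (15.0, 13.6 and 16.0 against 20.5 or more) and Srf (23.7, 23.2 and 25.5 against 27.1 or more). They also had the 3 highest sums of 6 microglial markers among the ACC mice (274, 287 and 291 CPM against 265 CPM or less). This is 1 marker list of many, and the others are not given for these mice. Of its 6 markers, 3 fell with the clamp at 4 h, and the part of microglia in these levels was not tested. The Egr3 levels of the same 3 mice (20.9, 25.4 and 23.6 CPM) lay above the ACC median of 18.4 CPM.

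Over all 11 ACC mice, 8 relations to Egr1 were computed on log2 CPM. Nr4a1 (Pearson r = 0.96, Spearman rho = 0.81, adjusted permutation p = 0.00052 and 0.0102), Ier2 (r = 0.90, rho = 0.82, adjusted permutation p = 0.00052 and 0.0102) and Egr2 (r = 0.86, rho = 0.89, adjusted permutation p = 0.0012 and 0.00352) passed by both measures, and Srf by r alone (r = 0.83, rho = 0.67, adjusted permutation p = 0.00534 and 0.0558). Egr4 (r = 0.62, rho = 0.58), Nr4a3 (r = 0.61, rho = 0.44), Egr3 (r = -0.43, rho = -0.47) and Nr4a2 (r = -0.16, rho = -0.05) had adjusted permutation p of r from 0.0631 to 0.627. Centred within genotype, r was 0.96 for Nr4a1, 0.88 for Ier2, 0.92 for Egr2 and 0.86 for Srf. Without the 2 mice farthest from the Egr1 median (WT 1 and miR155KI 4), r was 0.90 for Nr4a1, 0.85 for Ier2 and 0.85 for Egr2 (n = 9, exact permutation p = 0.00314, 0.00356 and 0.00209), and 0.58 for Srf (exact permutation p = 0.102). By rank only Egr2 stayed under 0.05. There rho was 0.67 for Nr4a1, 0.68 for Ier2, 0.90 for Egr2 and 0.42 for Srf (exact permutation p = 0.0589, 0.0503, 0.00203 and 0.270).

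The 11 mice include the gap at low Egr1, so the 8 relations were computed again in the other 8 mice, a choice made after the gap was seen. There no relation passed after adjustment. Egr2 was closest to Egr1 (Pearson r = 0.76, Spearman rho = 0.86, exact permutation p = 0.0289 and 0.0107, adjusted 0.145 and 0.0857). Ier2 (r = 0.73, rho = 0.55, exact permutation p = 0.0404 and 0.171, adjusted 0.145 and 0.524) and Nr4a1 (r = 0.70, rho = 0.52, exact permutation p = 0.0543 and 0.197, adjusted 0.145 and 0.524) came next. Srf (r = 0.06), Egr4 (r = -0.15), Egr3 (r = -0.18), Nr4a2 (r = 0.16) and Nr4a3 (r = -0.44) had exact permutation p from 0.259 to 0.900 before adjustment. Without the 2 mice farthest from the Egr1 median, r was 0.81 for Egr2, 0.68 for Ier2 and 0.64 for Nr4a1 (n = 6, exact permutation p = 0.0444, 0.124 and 0.185).

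**Figure D3:**
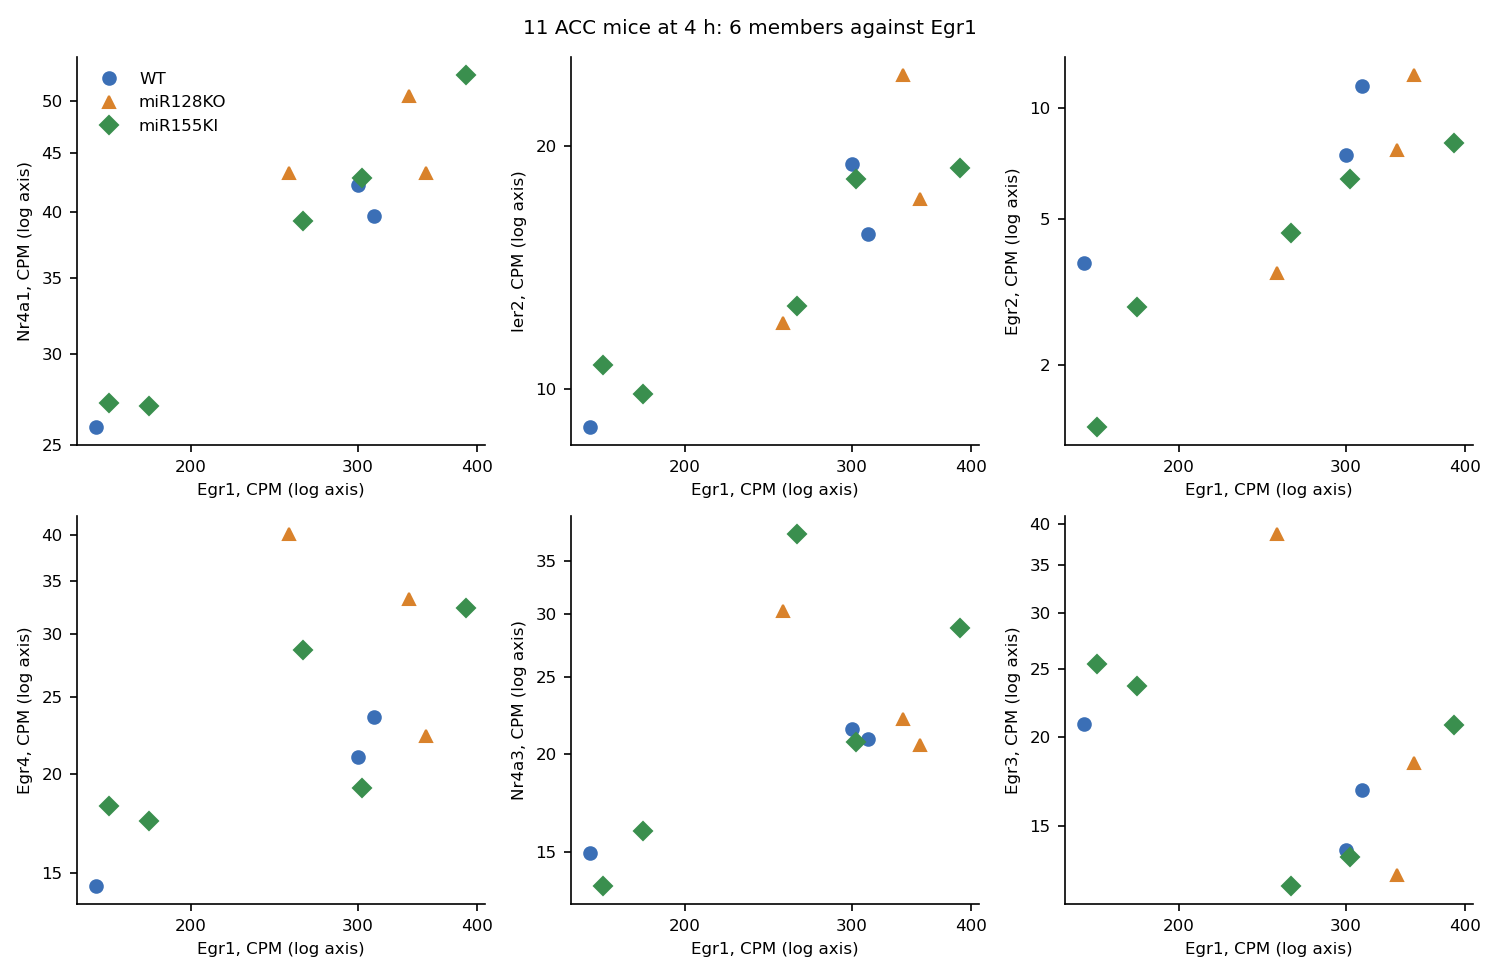
Members other than Egr1 (vertical, CPM, log axis) against Egr1 (horizontal, CPM, log axis) in the 11 ACC mice at 4 h, each point a mouse and each symbol a genotype. A gap separates 3 mice at 159 to 181 CPM of Egr1, which are also the lowest for Nr4a1 and Ier2, from 8 mice at 254 to 389.8 CPM, and the Egr3 points of those 3 lie at 20.9 to 25.4 CPM.

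At 1 h edgeR called 0 of 9 members between thoracolumbar and cervical cord, where it called 0.438% of 17810 genes in either direction. No member had an unadjusted edgeR p under 0.05, and DESeq2 also called none. In the authors' deposited DESeq2 table, unadjusted p was 0.0241 for Ier2, 0.0383 for Egr1 and 0.0408 for Nr4a1. The authors' adjusted p of these 3 members ran from 0.540 to 0.673. The values fell apart by mouse. In mice 1 and 2, thoracolumbar Egr1 stood at 287 and 312 CPM against 74.3 and 63.8 CPM in their cervical cord, whereas in mouse 3 it stood at 35.4 CPM against 52.9 CPM. Thoracolumbar Nr4a1 was 164 and 155.5 CPM and cervical Nr4a1 40.0 and 44.7 CPM in mice 1 and 2, with 24.2 and 32.3 CPM in mouse 3. Ier2 stood at 28.9 and 33.4 CPM against 8.58 and 9.90 CPM, and at 7.63 against 8.91 CPM. All 9 members were lower in the thoracolumbar than in the cervical cord of mouse 3, and the thoracolumbar library 3 was the lowest of the 6 for each of Egr1, Egr2, Egr3, Egr4, Nr4a1, Nr4a2, Nr4a3 and Ier2.

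The fitted log2 difference was 1.72 for Egr1 (SE 0.885, 95% interval -0.69 to 4.14, edgeR adjusted p = 0.733), 1.54 for Nr4a1 (SE 0.793, adjusted p = 0.733), 1.34 for Ier2 (SE 0.616, adjusted p = 0.696) and 1.78 for Egr2 (SE 0.976, adjusted p = 0.750). Without thoracolumbar library 3, these 4 members passed and no other did, with 0.477% of genes higher: Egr1 by 2.22 (adjusted p = 1.62e-05), Nr4a1 by 2.02 (adjusted p = 5.77e-08), Ier2 by 1.75 (adjusted p = 1.28e-07) and Egr2 by 2.30 (adjusted p = 0.000416) in edgeR. Leaving mouse 3 out in both regions, chosen after the data were seen, gave the same 4 members (Egr1 2.11, Nr4a1 1.90, Ier2 1.73 and Egr2 2.20), with 0.36% of genes higher. In 9 of 11 alternatives no member passed, and the other 2 were those without library 3 or mouse 3. Library 3 stands out by the low levels of these same members, so the p-values without it are no independent test. Over the 11 alternatives at 1 h the adjusted p ran from 6.99e-10 to 0.965 for Egr1 and from 6.99e-10 to 0.965 for Nr4a1. Both regions came from clamped mice, so the region of the cord and the clamp cannot be told apart; markers of motor neurons summed to 240.4 to 259 CPM in thoracolumbar and 394 to 419 CPM in cervical cord.

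The other members at 1 h showed smaller or less even differences. In mice 1 and 2, Egr4 was 16.9 and 27.5 CPM on the thoracolumbar side and 9.15 and 8.01 CPM on the cervical side, and in mouse 3 it was 0.716 and 5.69 CPM. Nr4a3 stood at 24.7 and 46.0 CPM against 17.7 and 15.7 CPM, and at 8.44 against 12.3 CPM. Egr3 (14.0 and 11.3 against 12.1 and 9.54 CPM), Nr4a2 (6.24 and 4.18 against 4.96 and 4.77 CPM) and Srf (42.4 and 42.0 against 32.2 and 40.0 CPM) were close between regions in mice 1 and 2.

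**Figure D4:**
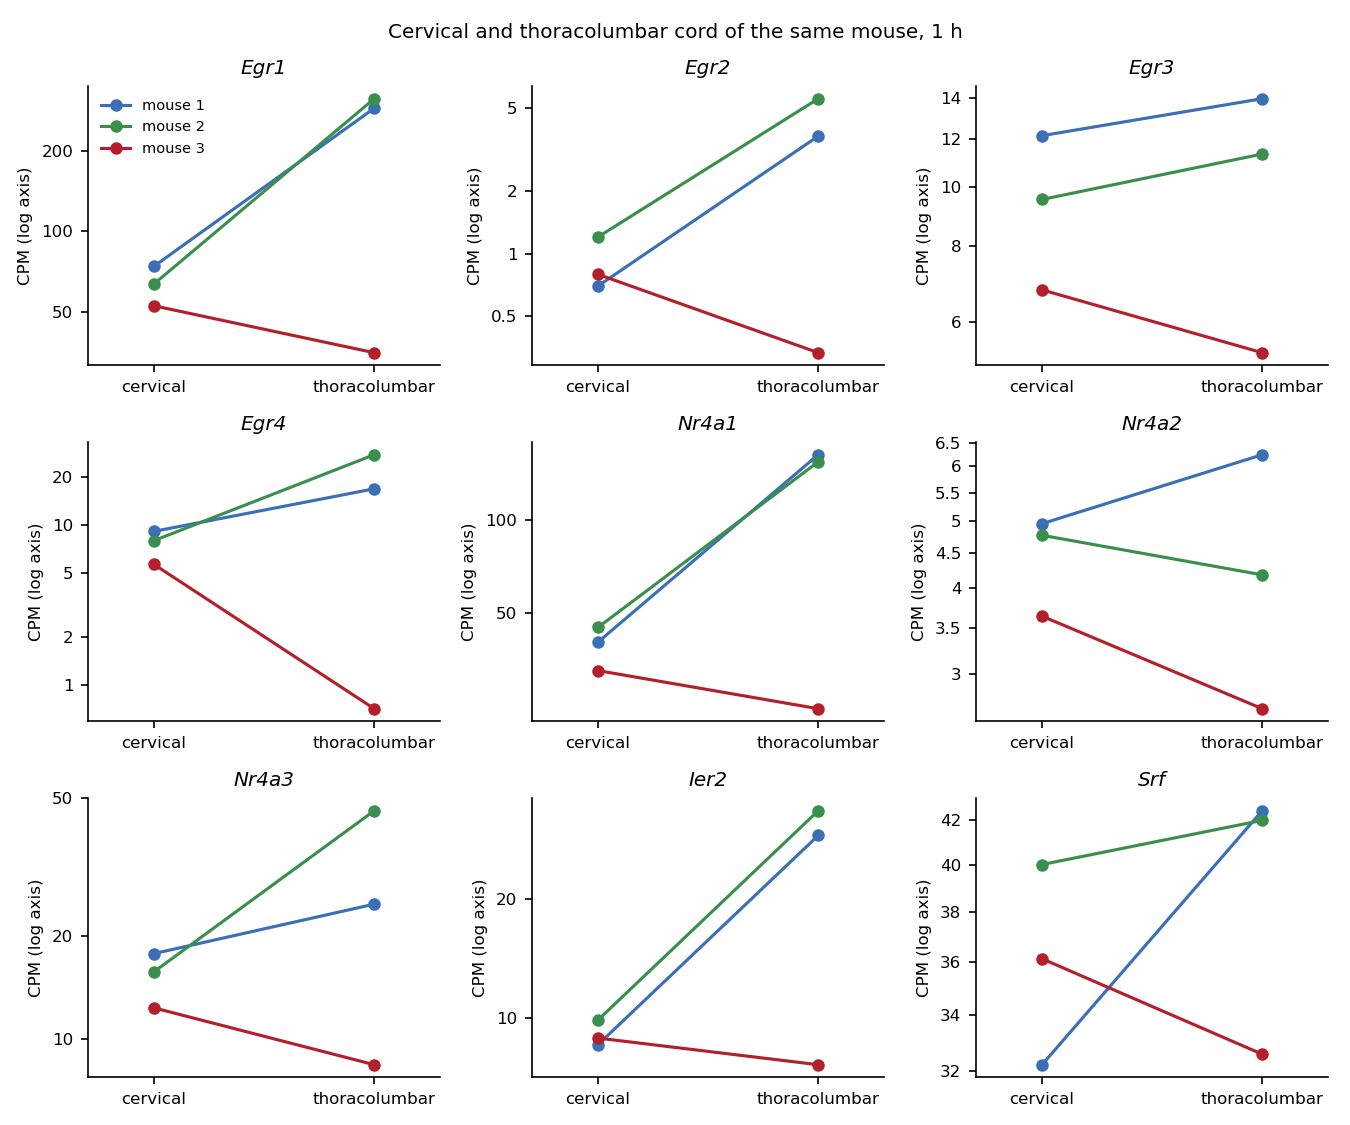
Level of each member in CPM (log axis) in cervical and thoracolumbar cord of the same 3 mice at 1 h, with 1 line per mouse. The red line of mouse 3 falls in every panel, for example from 52.9 to 35.4 CPM for Egr1, and the lines of mice 1 and 2 climb for Egr1, Egr2, Egr4, Nr4a1, Nr4a3 and Ier2.

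Side by side, with no test since the 1 h and 4 h libraries come from separate tables, the members' levels compared as follows. Thoracolumbar Nr4a1 in mice 1 and 2 at 1 h (164 and 155.5 CPM) lay above the whole 4 h ACC range (25.9 to 52.7 CPM), and Ier2 (28.9 and 33.4 CPM) above its own (8.96 to 24.6 CPM). Egr1 (287 and 312 CPM) lay within its 4 h ACC range of 159 to 389.8 CPM, and so did Egr4. Egr3 lay inside its 4 h ACC range of 12.3 to 38.8 CPM in mouse 1 (14.0 CPM) and below it in mouse 2 (11.3 CPM). In mouse 3, thoracolumbar Egr1 (35.4 CPM), Egr3 (5.34 CPM), Egr4 (0.716 CPM), Nr4a1 (24.2 CPM) and Ier2 (7.63 CPM) all lay below their 4 h ACC ranges. Thoracolumbar Srf (42.4, 42.0 and 32.6 CPM) and Nr4a2 (6.24, 4.18 and 2.67 CPM) lay above theirs (highest 31.5 and 2.22 CPM) in mice 1, 2 and 3. Cervical Srf and Nr4a2 did so too. Cervical cord at 1 h held more than 4 h Sham cord of Egr1 (63.7 ± 10.7 against 19.6 ± 4.64 CPM, SD, n = 3 and 11), Egr3 (9.48 ± 2.68 against 4.43 ± 1.62), Egr4 (7.62 ± 1.76 against 1.45 ± 0.747), Nr4a1 (39.0 ± 6.27 against 10.6 ± 2.11), Nr4a2 (4.45 ± 0.712 against 1.58 ± 0.655), Nr4a3 (15.3 ± 2.72 against 11.4 ± 6.65), Ier2 (9.13 ± 0.686 against 4.61 ± 1.20) and Srf (36.1 ± 3.91 against 20.8 ± 1.78). Egr2 went the other way (0.899 ± 0.267 against 1.33 ± 1.08 CPM), and the ranges of Egr2, Egr3 and Nr4a3 overlapped. Region, time and operation all differ between these groups.

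Of the genes that work with the members, other immediate early genes were called most often at 4 h. Of 41 tested, 36 rose and none fell (median log2 fold change 0.91), where 9.37% of all genes rose and 7.04% fell, among them Arc (3.27, SE 0.140), a synaptic gene that Egr factors drive, Jun (2.44, SE 0.113) and Fos (3.67, SE 0.169). Both Egr corepressors rose, Nab2 by 1.17 (SE 0.123, edgeR adjusted p = 1.19e-07), itself an Egr target, and Nab1 by 0.22 (SE 0.0424, adjusted p = 0.000542). Of 6 neuronal Egr targets, 2 rose (Arc and Nab2; list median 0.05) and none fell. Of 8 tested Egr2 targets in Schwann cells, none passed (median -0.21). The most abundant were the myelin genes Mbp (0.00, adjusted p = 0.983) and Mag (0.08, adjusted p = 0.353), which are also oligodendrocyte markers and so do not report Schwann cells here. Of the targets that are Schwann cell markers, Prx differed by -1.34 (edgeR adjusted p = 0.247) and Ncmap by -0.37 (edgeR adjusted p = 0.227). These lists were written with earlier results of these data known.

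The counts on the other lists are small, and several lie near those shares of all genes. None of the 3 retinoid X receptors that pair with Nr4a1 and Nr4a2 passed: Rxra (0.03, adjusted p = 0.640), Rxrb (-0.02, adjusted p = 0.831) and Rxrg (0.07, adjusted p = 0.611, all edgeR). None of 6 tested Nr4a2 targets of dopamine neurons passed (median 0.03), the most abundant being Aldh1a1 (0.03, adjusted p = 0.689) and Ret (0.10, adjusted p = 0.299). Around Srf, 3 of 12 cytoskeletal targets rose and none fell (median 0.07): Zyx by 0.28 (adjusted p = 0.000468), Tpm4 by 0.24 (adjusted p = 0.000494) and Vcl by 0.23 (adjusted p = 0.0383), all of which encode actin-linked proteins. Of 7 Srf partners and regulators, Elk1, the Ets factor that binds with Srf, fell by 0.40 (SE 0.0553, edgeR adjusted p = 4.52e-06) and none rose (median 0.04). Of 12 CREB and MEF2 activators, 3 rose and 1 fell (median 0.02), with Crem up by 0.35 (adjusted p = 0.000747), Crtc2 up by 0.19 (adjusted p = 0.00414) and Crtc1 down by 0.16 (log2 fold change -0.16, adjusted p = 0.0229). At 1 h no gene of these lists passed.

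Across 28 libraries, the 5 genes outside the members that were closest to the mean standardised log2 CPM of the Egr members, of 13032 ranked, were Fosb (r = 0.97), Hspa1b (r = 0.97), Hspa1a (r = 0.96), Jun (r = 0.96) and Dnajb1 (r = 0.95). Those closest to the Nr4a members were Dusp1 (r = 0.96), Btg2 (r = 0.92), Sik1 (r = 0.91), Cyr61 (r = 0.90) and Wnt7a (r = 0.87). The libraries share their treatment, region and time groups, which set most of these values, and Hspa1a and Hspa1b are near-identical copies whose reads may be split. Against the mean of the other 8 members, Nr4a1 and Egr1 were closest (r = 0.94 each), and Nr4a2 (r = 0.40) and Egr2 (r = 0.65) were farthest.

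The authors' deposited tables hold the same members under DESeq2. In the authors' deposited 4 h table, turned to ACC minus Sham, the log2 fold change was 3.81 for Egr1, 4.08 for Egr4, 1.90 for Nr4a1 and 0.17 for Nr4a2. The authors' deposited table of ACC mice with high against low chemokine levels holds 3 mice a side, which the study picked on measured Ccl2, Ccl3 and Ccl4. In that authors' deposited table Egr2 was 1.51 higher on the log2 scale in the high group (SE 0.328, authors' adjusted p = 0.00346) and Ier2 0.60 higher (SE 0.158, authors' adjusted p = 0.0492). Egr1 was 0.57 higher there (authors' adjusted p = 0.0553), and Egr3 0.56 lower (log2 difference -0.56, authors' adjusted p = 0.999951) in the authors' deposited table. Egr2 stood at 11.5, 7.44 and 8.02 CPM in the 3 high mice (WT 2, WT 3 and miR155KI 2). It stood at 3.56, 4.57 and 1.35 CPM in the 3 low mice (miR128KO 3, miR155KI 3 and miR155KI 4). The Egr2 levels of the high and low mice did not overlap. The share of all genes that separate 3 mice from 3 in this way was not computed, nor was the share called there. Of the low mice, miR155KI 4 was also among the 3 ACC mice with the lowest Egr1. WT mice were only on the high side and miR128KO only on the low side, so genotype and chemokine level cannot be told apart. The label of miR128KO ACC mouse 4, whose Egr2 stood at 7.69 CPM, also names that table while no column of the table holds this mouse, so the membership of the groups is uncertain.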

How the data were processed

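Gene counts are whole numbers as deposited by the authors, and processing tools are given per the submitters' processing notes: fastp, HISAT2 2.0.5 on GRCm38/mm10, featureCounts 1.5.0-p3 and DESeq2. Libraries were poly(A) selected, primed at random and made strand-specific with dUTP, per the labels' protocols; the annotation release and the strand setting of the counting are not given in the sources used here. The authors' log2 fold changes, standard errors and p-values were copied from their deposited DESeq2 tables, of which the 4 h and chemokine tables are signed the other way and were turned round. Their 34 columns of normalized values per library were not used.

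Counts were normalized by TMM and kept by filterByExpr (minimum count 10), and the quasi-likelihood F test of edgeR 4.0.16 (R 4.3.3, robust) was adjusted by Benjamini-Hochberg over all genes tested, with a threshold of 0.05. The fits were checked on simulated counts. One fit pooled the 4 h genotypes (20 residual degrees of freedom), one held 6 groups (16) and one the 1 h libraries (4). Log2 CPM used a prior count of 2. Standard errors are the log2 fold change divided by the root of F. Correlations used 100000 two-sided permutations, or every order for n under 10 (Python 3.11.15). DESeq2 1.42.0, other size factors, no filter, a replicate block, genotype as covariate, library 1 included and each library left out were the alternatives. At 1 h the same number marks the same mouse per the labels (correlation of deviations 0.0085, 0.0071 and 0.0274).

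The members and lists were chosen with earlier results of these data known. Every member was named, then up to 3 genes of each list with the smallest adjusted p at 4 h, or the 2 most abundant where none passed, all genes of lists of 3 or fewer, and the 5 genes closest to each family. Each 4 h library is a separate mouse, per the labels' titles and the series' design text. Values of 1 marker gene are not reported here.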

Additional observations from a re-analysis of the deposited data

Results flagged for a closer look

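Egr4 in miR128KO Sham library 2 stood at 3.52 CPM, apart from the other 3 mice of its group, of which the nearest was at 1.68 CPM. With library 1 of miR128KO ACC counted in, it was the only one of 36 combinations of member and 4 h group of 4 or 5 libraries whose extreme value stood this far from the rest, and chance alone marks about 1 group in 20. The same mouse had the highest Sham level of Egr1 (31.8 CPM), Egr3 (7.40 CPM) and Nr4a3 (24.0 CPM). Without it the Egr4 log2 fold change at 4 h was 4.31 and still passed, and the cause of the higher level was not tested.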

How the results depend on the processing

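Of 1478 recomputed values over all results, 1381 were scored as the same as in the main fit. For a member's fold change this meant the same direction and the same side of the threshold. For a count of members or genes called it meant only a count near the main one. At 4 h the count of members called was 7 or 8 in 28 alternatives, and the log2 fold change ran from 3.69 to 3.90 for Egr1, 3.96 to 4.35 for Egr4 and 0.88 to 1.34 for Nr4a3. Leaving out each library in turn gave 3 to 6 members within WT mice, 5 to 7 within miR128KO mice and 0 to 4 at 1 h, and moved Nr4a2 from -0.44 to 0.46 within WT mice and from -0.38 to 0.23 at 1 h, and Egr3 from -0.19 to 0.42 at 1 h. Without mouse 3 in both regions, 4 members were called at 1 h and Nr4a2 was 0.11. With miR128KO ACC library 1 included, 2 members were called within WT and 4 within miR128KO mice.

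At 4 h same-numbered mice share only a number (correlations -0.17 to 0.14). With a replicate block, 4 members were called within miR128KO mice, and the count of genes called at 4 h moved from 2914 to 1859, within miR128KO from 535 to 187 and within miR155KI from 904 to 428. The replicate block changed no member's call at 1 h. Under DESeq2 the count of genes called was 871 within miR128KO, 83 against 17 over Sham genotypes, 95 against 21 over ACC genotypes, 1 against 0 for the difference among genotypes and 126 against 78 at 1 h. Without a filter it was 31, 42 and 272 for Sham genotypes, ACC genotypes and 1 h. With library 1 included it was 173 against 338 within WT, 151 within miR128KO and 54 over ACC genotypes. Leaving out each library in turn took it as low as 170 within WT, 289 within miR128KO, 566 within miR155KI and 6 over Sham genotypes, up to 2 for the difference among genotypes, to 11 to 36 over ACC genotypes and to 34 to 142 at 1 h. The causes were not tested. Depth limits most the members with the fewest Sham reads, Egr2, Egr4 and Nr4a2, whose mean Sham levels were 1.33, 1.45 and 1.58 CPM.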

Other observations

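Library 1 of miR128KO ACC was left out by the study and used here only in the alternatives that name it and in the search for extreme values. It held Egr1 at 14.9 CPM, Egr2 at 1.55 CPM, Egr3 at 3.39 CPM, Egr4 at 1.61 CPM, Nr4a1 at 8.73 CPM, Nr4a2 at 1.94 CPM, Nr4a3 at 6.30 CPM, Ier2 at 5.33 CPM and Srf at 20.5 CPM. Its Egr1 was below the lowest Sham mouse (15.2 CPM). The thoracolumbar library of mouse 3 at 1 h was the other clamped library with low members, with Egr4 at 0.716 CPM and Egr2 at 0.334 CPM, while its Srf stood at 32.6 CPM.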
